A study of Mus musculus with 11 samples.

Results

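Plasmacytoid dendritic cells are the interferon-producing cells of the dendritic lineage, and the genes described here are 10 that mark them in mouse: Siglech, Ccr9, Cd209d, Havcr1, Tlr12, Tyrobp, Pacsin1, Smim5, Klk1 and Sh3bgr. They were picked by symbol, 10 of the 24319 gene symbols in the tables, because their levels stood out in sorted wild-type proB cells. That choice used the levels in the wild-type libraries, so every comparison of the 10 genes with wild-type cells is given as a description, with no test. Each gene was followed in all 11 RNA-seq libraries of the study, in FPKM, the authors' unit, in which fragment numbers are scaled by transcript length and library size so that levels of different genes can be compared.

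The study compared B cell acute lymphoblastic leukemia (B-ALL) with earlier B cell stages in mice of the C57BL/6J strain that lack 1 allele each of Ebf1 and Pax5, the transcription factors that set B cell identity. The B-ALL cells were Ebf1+/- Pax5+/- and came from lymph nodes of 3 leukemic mice, numbered 686, 713 and 760, with 2 libraries per mouse. The dHet proB cells were Ebf1+/- Pax5+/- Rag2-/- and gave 3 libraries; they grew from c-Kit+ fetal liver cells on an OP9 feeder layer in the presence of interleukin 7, Flt3 ligand and stem cell factor (SCF). The wt proB cells were Ebf1+/+ Pax5+/+ Rag2+/+, were sorted from bone marrow as Fraction BC (FrBC) and gave 2 libraries. Tissue, culture, genotype and sorting change together between the groups and cannot be told apart. The sources used here give neither the sort gate nor the animals' ages. They also do not tell if the libraries of dHet proB or wt proB cells are separate animals or cultures, so the spread behind each p-value may be technical.

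Plasmacytoid dendritic cells develop in the bone marrow, depend on the transcription factor TCF4 and on Flt3 ligand, and sense viral nucleic acids through endosomal toll-like receptors. In mouse they carry Siglec-H and BST2 on the surface, and also B220, the CD45 isoform by which B cell precursors are commonly sorted. In a bulk library a difference in a marker can come from more or fewer cells of the type or from more or less RNA per cell, and these cannot be told apart.

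Promoters of 3 members are shown because TCF4, on which these cells depend, binds the E-box CANNTG, as other E proteins do. The members were chosen for their wt proB levels, and a part of TCF4 in those levels was not tested. RefSeq promoter windows of build GRCm38.p6, from 250 bases before to 50 bases after the start, were matched for 7 of the 10 genes (all but Tyrobp, Smim5 and Sh3bgr), and those of the 3 matched genes with the highest FPKM in wt proB cells are given 5′ to 3′ on the strand of the gene, with each CANNTG in capitals.
Siglech (chr7:55767934-55768233, plus strand): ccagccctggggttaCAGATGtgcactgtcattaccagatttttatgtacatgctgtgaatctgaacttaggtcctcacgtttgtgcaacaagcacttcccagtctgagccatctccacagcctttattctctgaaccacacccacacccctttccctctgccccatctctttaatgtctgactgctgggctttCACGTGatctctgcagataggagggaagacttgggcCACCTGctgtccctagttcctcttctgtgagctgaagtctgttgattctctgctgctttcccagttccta
Cd209d (chr8:3878450-3878749, minus strand): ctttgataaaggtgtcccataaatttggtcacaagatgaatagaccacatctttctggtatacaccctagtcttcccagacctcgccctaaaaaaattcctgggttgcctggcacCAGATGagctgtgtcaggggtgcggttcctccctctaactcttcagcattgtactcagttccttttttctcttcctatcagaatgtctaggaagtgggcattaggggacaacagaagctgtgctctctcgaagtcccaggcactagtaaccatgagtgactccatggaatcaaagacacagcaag
Ccr9 (chr9:123766961-123767260, plus strand): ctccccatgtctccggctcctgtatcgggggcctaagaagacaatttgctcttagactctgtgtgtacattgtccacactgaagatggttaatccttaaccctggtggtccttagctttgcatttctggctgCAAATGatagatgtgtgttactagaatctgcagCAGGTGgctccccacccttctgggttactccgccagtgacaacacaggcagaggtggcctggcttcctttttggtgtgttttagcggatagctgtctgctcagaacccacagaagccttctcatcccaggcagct
On both strands, CANNTG was found in 5 of the 7 windows, against 72.1% of all 27025 RefSeq promoter windows of the same length. Its variant CAGGTG, whose matches are also CANNTG matches, was found in 4 of 7, against 20.0% of all windows. GAGGAA, the core bound by PU.1 and Spi-B, was found in 3 of 7 (28.3% of all windows), and the RUNX core TGTGGT in 4 of 7 (16.9% of all windows). Siglech held 3 CANNTG, 1 of them CAGGTG, and 1 each of GAGGAA and TGTGGT. Cd209d held 1 CANNTG, Ccr9 held 2, and the windows of Pacsin1 and Tlr12 held none but had 1 TGTGGT each. A match describes the letters of a window and shows no binding.

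Levels of B-lineage genes were read first. All 3 groups are B-lineage cells, so these levels cannot check the labels of the libraries. All 12 genes of a proB list, with Cd79a and Igll1 among them, averaged 1 FPKM or more in each group, and their summed FPKM was 6355 to 9137 in B-ALL, 8607 to 11032 in dHet proB and 7609 to 7984 in wt proB libraries. Ebf1 had 151 to 212 FPKM in B-ALL, 283 to 369 in dHet proB, against 297 and 542 in wt proB libraries. Pax5 had 35.3 to 52.8 in B-ALL, 70.9 to 99.0 in dHet proB, against 101 and 57.2 in wt proB. For each gene 1 wt proB library lay within or below the dHet proB range, so these levels do not check the genotypes either. Rag2 was still listed at 8.57 to 12.6 FPKM in the Rag2-/- dHet proB libraries, against 37.8 and 31.1 in wt proB; the sources used here do not say which part of the gene was deleted, so this level does not check the label. The tables summed to 505261 to 638953 FPKM per library and listed 13251 to 14947 genes above 0. They hold no counts, so sequencing depth is unknown. The spacing of the lowest values put the libraries' depths between 0.720 and 1.13 of that of wt proB library 1.

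All 10 genes were higher in both wt proB libraries than in every one of the 9 other libraries, a pattern that 11.6% of the 11110 genes tested showed. For 9 of the 10, all but Ccr9, the lower wt proB library was more than 3 times the highest library elsewhere, which 2.13% of genes showed. Because the members were chosen for this, nothing is read from those counts. Summed over the 10 genes, FPKM was 13.8 to 27.0 in B-ALL libraries, 1.82 to 7.99 in dHet proB libraries, and 672 and 431 in wt proB libraries 1 and 2.

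**Figure D1:**
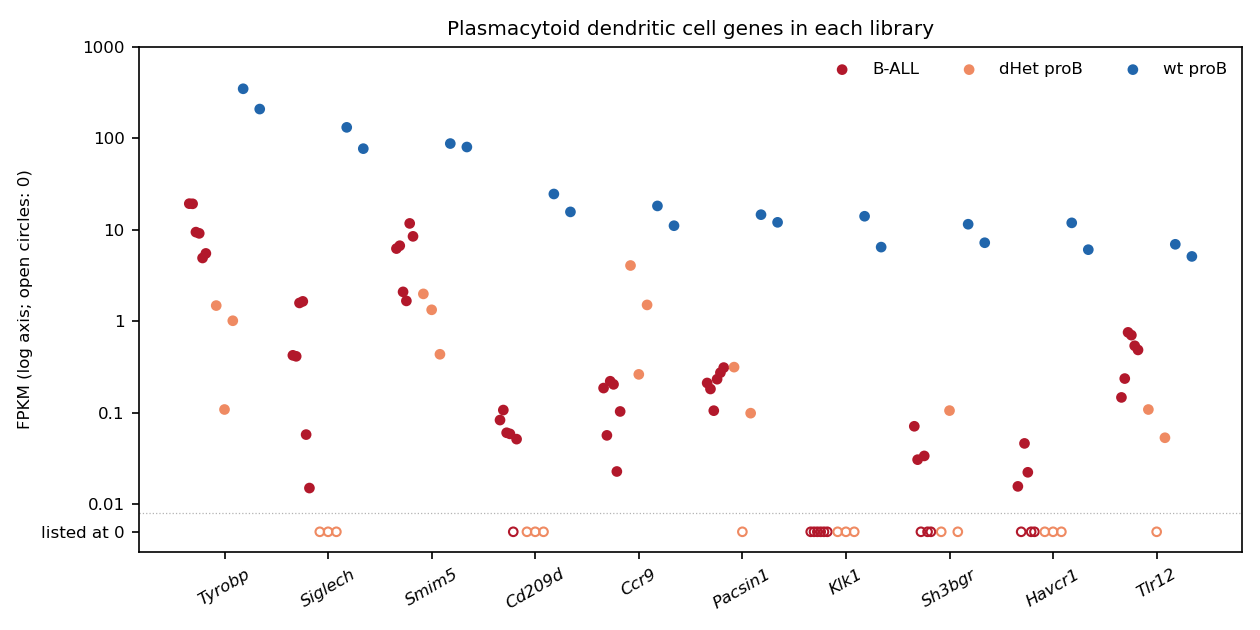
FPKM of the 10 genes (log axis) in each of the 6 B-ALL, 3 dHet proB and 2 wt proB libraries, 1 point per library, with open circles for genes listed at 0. Both wt proB points lie above all others for each gene, and Klk1 is listed at 0 in the other 9 libraries.

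Of the surface receptors, Siglech showed the highest wt proB level. It encodes Siglec-H, a sialic acid-binding lectin that signals through the adaptor DAP12. Siglech had 0.0150 FPKM in the lowest, a median of 0.420 and 1.65 in the highest B-ALL library, was listed at 0 in all 3 dHet proB libraries, and had 132 and 77.3 FPKM in the wt proB libraries. The lower wt proB library was thus 46.8 times the highest library of any other group, and on the log2(FPKM + 1) scale used throughout the fitted difference was -6.03 for B-ALL minus wt proB. This pseudocount of 1 understates differences of genes with low FPKM.

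Ccr9 encodes the receptor for the chemokine CCL25, which guides cells to gut and thymus. It had 0.0228 FPKM at the lowest, a median of 0.145 and 0.221 at the highest in B-ALL, 4.08, 0.263 and 1.51 FPKM in dHet proB libraries 1, 2 and 3, and 18.3 and 11.1 in wt proB. Ccr9 was the member with the smallest gap: the lower wt proB library was 2.72 times dHet proB library 1. The differences were -3.76 for B-ALL minus wt proB and -2.60 for dHet proB minus wt proB.

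Cd209d encodes a C-type lectin of the DC-SIGN family. Its FPKM ran from 0 through a median of 0.0597 to 0.107 in B-ALL, was 0 in all dHet proB libraries, and was 24.7 and 15.7 in wt proB. Havcr1 encodes TIM-1, a receptor for phosphatidylserine. It was 0 to 0.0463 FPKM in B-ALL with a median of 0.00784, listed at 0 in dHet proB, against 11.9 and 6.08 in wt proB. For both genes the lowest wt proB value was more than 100 times the highest B-ALL value, 147 times for Cd209d and 131 times for Havcr1.

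Tlr12, a toll-like receptor that in mouse recognises a profilin of Toxoplasma, was the lowest member in wt proB cells. It had 0.147 at the lowest, a median of 0.514 and 0.758 FPKM at the highest in B-ALL, 0.109, 0 and 0.0534 in dHet proB, against 6.96 and 5.13 in wt proB. Tyrobp encodes DAP12, the adaptor with an activating motif that serves Siglec-H and also receptors of NK and myeloid cells. By group mean it was the highest member in B-ALL and wt proB, with 4.93 at the lowest, a median of 9.31 and 19.4 FPKM at the highest in B-ALL, 1.49, 0.109 and 1.02 in dHet proB, against 349 and 210 in wt proB. In dHet proB, Ccr9 averaged 1.95 ± 1.95, Smim5 1.26 ± 0.783 and Tyrobp 0.871 ± 0.701 FPKM (SD, n = 3), levels that do not differ beyond their spread.

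Among the remaining members, Pacsin1 encodes an F-BAR protein of endocytosis that plasmacytoid dendritic cells use in their interferon response. It had 0.106 to 0.312 FPKM in B-ALL with a median of 0.223, 0.316, 0 and 0.0991 in dHet proB, against 14.7 and 12.1 in wt proB. Smim5, a small membrane protein, was above 1 FPKM in all 6 B-ALL libraries. It had 1.67 FPKM at the lowest, a median of 6.48 and 11.8 at the highest in B-ALL, 1.997, 1.34 and 0.437 in dHet proB, against 87.9 and 80.6 in wt proB.

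Klk1 encodes tissue kallikrein, a secreted serine protease. It was listed at 0 in all 6 B-ALL and all 3 dHet proB libraries and had 14.1 and 6.48 FPKM in wt proB, so no fold is given. Sh3bgr, a small protein with an SH3-binding stretch, was 0 to 0.0712 FPKM in B-ALL, 0, 0.106 and 0 in dHet proB, against 11.5 and 7.24 in wt proB. Both wt proB libraries stood above the others for each of these genes.

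Over the 10 members the median difference was -3.66 for B-ALL minus wt proB and -3.54 for dHet proB minus wt proB, against -0.02 and -0.04 over all 11110 genes tested. All 10 passed the filter of 1 FPKM or more in at least 2 of 8 units. The units were 3 mice, each the mean of its 2 libraries, 3 dHet proB and 2 wt proB libraries. In B-ALL and dHet proB alone only 3 members, Tyrobp, Smim5 and Ccr9, reached the filter. The others were tested only because they are high in wt proB. With either wt proB library left out 4 members passed, Siglech by way of mouse 713 and the remaining wt proB library. Siglech, Cd209d, Havcr1 and Klk1 were at 0 in all dHet proB libraries, and the dHet proB difference of such a gene depends on the pseudocount. By mean wt proB FPKM the order was Tyrobp (279 ± 98.8), Siglech (105 ± 38.8), Smim5 (84.3 ± 5.19), Cd209d (20.2 ± 6.34), Ccr9 (14.7 ± 5.07), Pacsin1 (13.4 ± 1.82), Klk1 (10.3 ± 5.39), Sh3bgr (9.39 ± 3.04), Havcr1 (9.01 ± 4.15) and Tlr12 (6.04 ± 1.29; SD, n = 2 each). Siglech and Smim5 overlapped within their spread, as did all neighbours from Cd209d to Tlr12; only the steps from Tyrobp to Siglech and from Smim5 to Cd209d were free of overlap between libraries.

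The members were then compared in B-ALL and dHet proB cells, a contrast that the choice of genes did not use. Tyrobp was higher in B-ALL, by 2.62 ± 0.47 (SE) on the log2 scale, with an adjusted p of 0.00810 by limma with Benjamini-Hochberg adjustment over all genes; it averaged 11.3 ± 7.25 FPKM in B-ALL (SD, n = 3 mice) and 0.871 ± 0.701 in dHet proB (SD, n = 3), and it was higher in 6 of 6 B-ALL libraries than in any dHet proB library. It passed under each alternative tried (adjusted p up to 0.0258). Some markers of other cells were higher in B-ALL too. They were 7 of the 9 macrophage genes tested (median log2 difference 1.88), 5 of 7 T cell genes and 4 of 7 NK cell genes. None of 12 neutrophil genes passed (median 0.56), though many of those pass the filter only through wt proB. Of 6 conventional dendritic cell genes 1 was higher and 1 lower, and of 12 proB genes 4 were lower and none higher. The part of other cells in the Tyrobp result was not tested. Only 3 of the 10 members, Tyrobp, Smim5 and Ccr9, reach the filter in these 2 groups alone; the others were at 1.65 FPKM or less in every B-ALL and dHet proB library, so no share of members is read against the 25.5% of all genes tested that passed or the 14.5% that were higher in B-ALL. Smim5 (log2 difference 1.52, adjusted p = 0.0529) and Ccr9 (-1.16, adjusted p = 0.0981) did not pass in limma. Leaving out mouse 713 took Smim5 past the threshold (adjusted p = 0.00620), and leaving out dHet proB library 2 took Ccr9 past it (adjusted p = 0.0182). All 6 B-ALL libraries lay above all 3 dHet proB libraries for Siglech, Tlr12 and Tyrobp, a pattern that 19.5% of genes showed. Siglech and Tlr12 do not reach the filter in these 2 groups, so this count is not read against that share. For Siglech the lowest B-ALL library had 0.0150 FPKM against 0 in dHet proB, and for Tlr12 0.147 against at most 0.109.

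The 3 leukemias differed in some of these transcripts. Siglech had 1.59 and 1.65 FPKM in the libraries of mouse 713, 0.425 and 0.415 in those of mouse 686, and 0.0578 and 0.0150 in those of mouse 760. Tlr12 was likewise highest in mouse 713, with 0.758 and 0.707 FPKM, while Tyrobp was highest in mouse 686, with 19.4 and 19.3, and Smim5 in mouse 760, with 11.8 and 8.50. The members therefore did not rank the mice in 1 order.

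In a limma F test on the 11 libraries, Siglech (adjusted p = 0.00440), Smim5 (0.00405) and Tyrobp (0.0198) differed among the mice, and 22.3% of the 11293 genes tested did. Besides these 3 members only Ccr9, which did not pass, reaches the filter with either wt proB library left out. Tlr12 entered the test through its wt proB level alone; its adjusted p was 0.0499, and 0.0560 with the replicate number as a block. The spread in that test is between libraries of a mouse, not between animals. Tlr12 was not called without any 1 of the 6 B-ALL libraries, with adjusted p up to 0.236, or without dHet proB library 1 (0.0568), and Tyrobp lost its call without any B-ALL library except library 1 of mouse 713, with adjusted p of 0.0509 to 0.0934. Marker lists of other cells also took different values between mice, and their part in the result was not tested. Macrophage markers summed to 48.6 and 45.1 FPKM for mouse 686, 55.9 and 55.8 for mouse 713, and 10.9 and 11.4 for mouse 760, and neutrophil markers to 53.0 and 52.1 for mouse 686, 2.58 and 3.32 for mouse 713, and 1.28 and 1.55 for mouse 760. Erythroid and mature B cell markers were, like Siglech and Tlr12, highest in mouse 713, at 399 and 502 FPKM and at 59.6 and 61.3 FPKM. NK cell markers were, like Smim5, highest in mouse 760, at 335 and 273 FPKM.

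**Figure D2:**
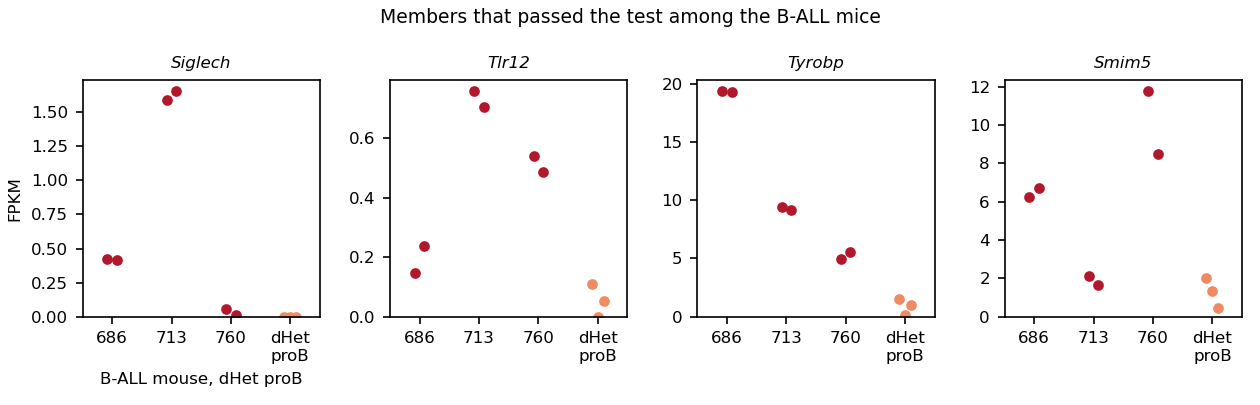
FPKM (linear axes) of Siglech, Tlr12, Tyrobp and Smim5 in the libraries of B-ALL mice 686, 713 and 760, 2 points per mouse, and in the 3 dHet proB libraries. Siglech and Tlr12 are highest in mouse 713, Tyrobp in mouse 686 and Smim5 in mouse 760.

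Ratios between members within a library also differed. Tyrobp was 45.5 and 46.5 times Siglech in mouse 686, 5.95 and 5.54 times in mouse 713, 85.3 and 368 times in mouse 760, against 2.64 and 2.71 times in the wt proB libraries, all on the FPKM scale. The ratio was nearly the same in both wt proB libraries although both genes differed between them, while Smim5 was 0.665 and 1.04 times Siglech there, and the ratios of mouse 760 rest on Siglech values near 0.

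Other genes known from plasmacytoid dendritic cells were read from a list of 42, none of them a member. The list was written with earlier results of these data known. Against wt proB, 21 of the 42 fell in B-ALL and 1 rose (limma, adjusted p under 0.05), and in dHet proB 20 fell and none rose, where over all genes tested 10.0% fell and 8.15% rose in B-ALL, and 6.50% fell and 2.18% rose in dHet proB. The median difference was -1.73 for B-ALL and -2.09 for dHet proB, against -0.02 and -0.04 over all genes. Both comparisons share the wt proB libraries. Cd300c, Lag3, Klra17, Upb1, Nrp1, Itgax and Paqr5 reached 1 FPKM in no unit outside wt proB. They entered the test through wt proB alone, could only be called lower, and are in both counts. P2ry14 and Cd4, also in both counts, reached 1 FPKM outside wt proB only in mouse 713 and mouse 686 in turn. Tlr9, in neither count, did so only in mouse 713. These genes too passed the filter through wt proB. The counts are therefore a description and are not read against the shares of all genes. These counts rest on having both wt proB libraries: without library 1, 35 genes were tested and 6 fell in B-ALL and 6 in dHet proB, and without library 2, 10 and 8 did. Calls over all genes fell away as well, to 275 of 10844 genes in B-ALL and 76 in dHet proB without library 1, and to 195 and 115 of 10854 without library 2, in either direction. The median difference of the list was then -1.18 and -1.29 in B-ALL and -1.42 and -1.81 in dHet proB, without library 1 and library 2 in turn.

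Of the 18 surface genes of the list, 11 fell in B-ALL and 11 in dHet proB, and of 9 further genes, mostly enzymes and secreted proteins, 6 fell in each. Cd7, a surface glycoprotein of early lymphoid cells, showed the largest difference, -5.68 in B-ALL (adjusted p = 8.6e-05) and -7.05 in dHet proB (adjusted p = 2.9e-05). It had 1.18 to 2.19 FPKM in B-ALL, 0 in all dHet proB libraries, and 190 and 90.3 in wt proB. Lag3, an inhibitory receptor that binds MHC class II, had 0.0885 to 0.521 FPKM in B-ALL, 0 in dHet proB, against 25.6 and 20.7 in wt proB (log2 difference -4.27 in B-ALL and -4.59 in dHet proB). Cd300c, an activating receptor of the CD300 family, was listed at 0 in all libraries outside wt proB except 1 of mouse 686, at 0.0583 FPKM, and had 17.6 and 13.4 in wt proB. BST2, the tetherin that is a sorting marker of these cells, fell by 1.68 in B-ALL (adjusted p = 0.00492) and by 2.73 in dHet proB (adjusted p = 0.000744). Bst2 had 55.8 to 101 FPKM in B-ALL and 31.5 to 38.1 in dHet proB, against 282 and 197 in wt proB, and its B-ALL call was lost without wt proB library 1 (adjusted p = 0.0676).

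Of the further genes, Cox6a2, a subunit of cytochrome c oxidase, had 1.22 to 5.13 FPKM in B-ALL, 20.7, 2.60 and 3.39 in dHet proB, against 169 and 111 in wt proB. Its differences were -5.20 and -4.30, but without wt proB library 1 neither passed (adjusted p = 0.0535 in B-ALL and 0.142 in dHet proB), and without library 2 the one in dHet proB did not (adjusted p = 0.0964). Grn, the secreted growth factor progranulin, fell in both (-4.08 and -2.72), with 9.39 ± 0.740 FPKM in B-ALL (SD, n = 3 mice), 26.4 ± 8.09 in dHet proB (SD, n = 3), and 203 and 150 in wt proB. Ctsl, the lysosomal protease cathepsin L, had 0.0541 to 0.414 FPKM in B-ALL, 0.201 to 2.22 in dHet proB, against 32.9 and 12.1 in wt proB; its fall in dHet proB did not pass without wt proB library 1 (adjusted p = 0.0987). Rnase6, a ribonuclease of the RNase A family, and Upb1, an enzyme of pyrimidine breakdown, fell in both as well, with differences of -3.95 and -3.58 in B-ALL and of -4.87 and -3.59 in dHet proB. Rnase6 did not pass in either comparison without wt proB library 1 (adjusted p = 0.110 and 0.122) or library 2 (0.0948 and 0.0799). Lag3, Cd300c and Upb1 were no longer tested with 1 wt proB library left out, because too few units then reached 1 FPKM. The gene that rose in B-ALL was Plac8, by 1.61 (adjusted p = 0.0287), with 895 to 1033 FPKM in B-ALL and 418 and 237 in wt proB; it was singled out after its values were seen.

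The list also holds regulators and nucleic acid sensors. Of 8 regulators, 4 fell in B-ALL and 2 in dHet proB. Tcf4 fell by 1.31 in B-ALL (adjusted p = 0.00270; 0.0571 without wt proB library 2) and did not pass in dHet proB (difference -0.27, adjusted p = 0.423), with 15.5 to 24.4 FPKM in B-ALL, 41.8 to 45.9 in dHet proB, against 52.7 and 54.4 in wt proB. Irf8, which directs dendritic and B cell programs, had 221 and 229 FPKM in mouse 713 and 14.4 to 23.2 in the other B-ALL libraries, 38.9 to 57.8 in dHet proB, against 427 and 266 in wt proB. Its differences of -2.96 and -2.73 did not pass (adjusted p = 0.0707 and 0.142). Both passed without mouse 713 (limma, adjusted p = 0.000475 and 0.00115), and the difference in dHet proB passed with only the 2 groups fitted (0.00156). With all 11 libraries taken as units both passed as well, but the 2 libraries of a mouse then count separately. The spread in that fit is not between animals. Irf7, the master factor of interferon transcription, did not pass (-0.86, adjusted p = 0.348 and -1.35, adjusted p = 0.239).

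None of the 7 sensing genes fell in B-ALL and 1 did in dHet proB. That gene was Tlr7, a receptor for single-stranded RNA, which had 5.55 to 12.8 FPKM in B-ALL, 0.121 to 1.20 in dHet proB, against 4.84 and 3.45 in wt proB. Its difference in B-ALL was 1.04 (adjusted p = 0.0933; 0.0429 without mouse 760). The fall of Tlr7 in dHet proB, by 1.62 (adjusted p = 0.0373), was lost without mouse 686 or any 1 of the dHet proB or wt proB libraries, with adjusted p of 0.0507 to 0.313. Tlr9, a receptor for unmethylated DNA, was low everywhere, at 0.212 to 1.34 FPKM in B-ALL, 0.217 to 0.679 in dHet proB, against 1.33 and 1.19 in wt proB; it did not pass (adjusted p = 0.257 in B-ALL, 0.0396 without mouse 713, and 0.215 in dHet proB).

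**Figure D3:**
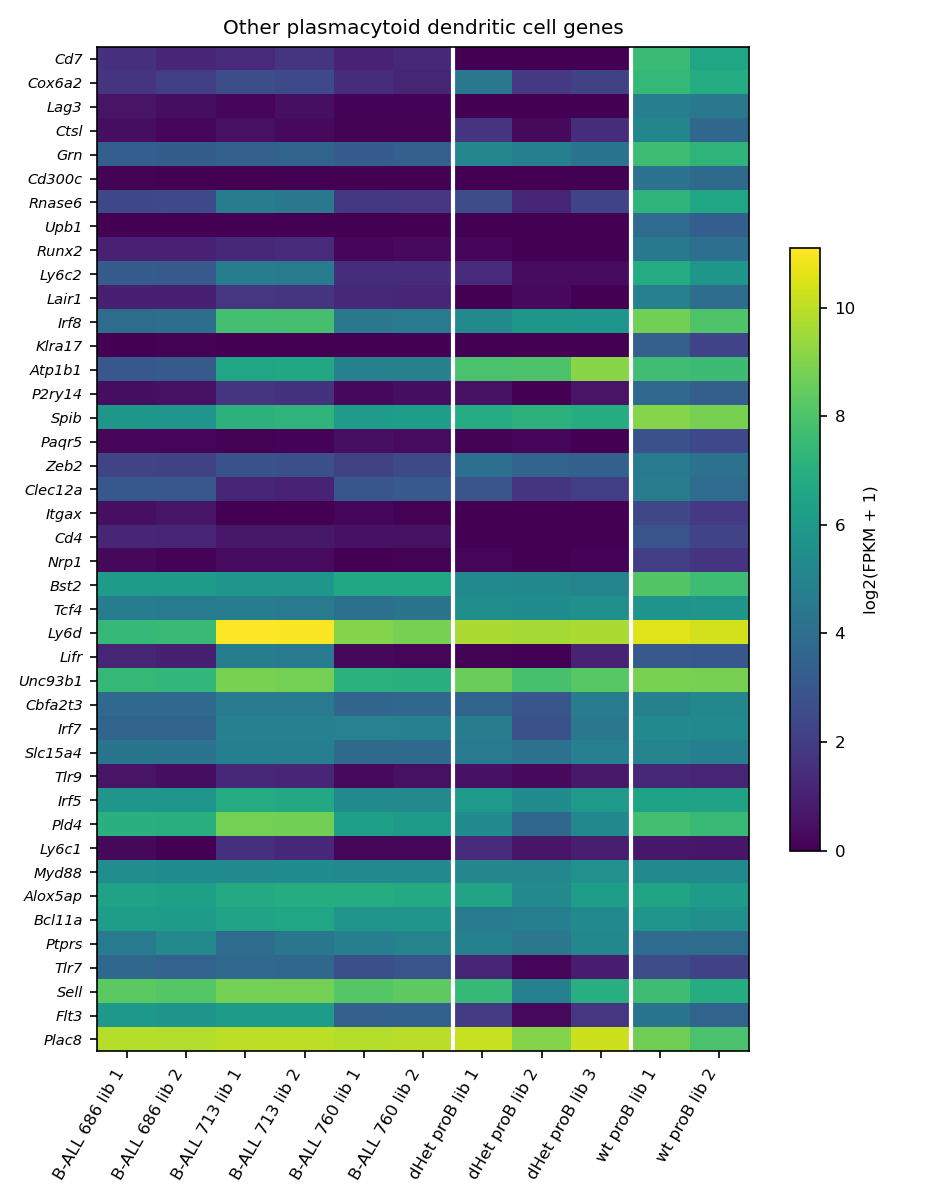
Level of the 42 other plasmacytoid dendritic cell genes as log2(FPKM + 1), coloured, in the 6 B-ALL, 3 dHet proB and 2 wt proB libraries, with genes ordered by the difference of B-ALL minus wt proB. Genes at the top, Cd7 and Cox6a2 first, are brightest in the wt proB columns, while those at the bottom are as bright or brighter in B-ALL.

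Relatives of the members were read to see whether whole families were high in wt proB cells. In the Siglec family, Siglecg, an inhibitory receptor of B cells, had a mean of 45.2 FPKM in B-ALL, 47.1 in dHet proB and 169 in wt proB, and fell in B-ALL (adjusted p = 0.0209) but did not pass in dHet proB (adjusted p = 0.0503). Cd22 averaged 26.8 FPKM in B-ALL, 11.2 in dHet proB and 27.2 in wt proB and passed in neither. In the Cd209 family, Cd209a averaged 1.32 FPKM in B-ALL, was 0 in dHet proB and averaged 39.5 in wt proB, with 42.4 and 36.6 in the libraries, and fell in both comparisons (limma, adjusted p = 0.00251 and 0.00144). Outside wt proB it reached 1 FPKM only in mouse 713, so it passed the filter through wt proB. Cd209b, by contrast, had 1.27 to 9.53 FPKM in B-ALL, was listed at 0 in every dHet proB and wt proB library, and rose in B-ALL against wt proB (limma, adjusted p = 0.0234). It entered the test through B-ALL alone and could only be called higher.

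Of the kallikreins related to Klk1, 14 on the list were at 0 in both wt proB libraries, and Klk1b27 and Klk8 were not. Klk1b27 had 0.0172 FPKM on average in B-ALL, 0 in dHet proB and 3.47 in wt proB, and Klk8 had 0.630 on average in B-ALL, 5.65 in dHet proB and 2.53 in wt proB. The Cd209 and Klk1 genes are close copies of each other, and the sources used here do not say how shared reads were split, so the division of FPKM within these families is uncertain. Among chemokine receptors Ccr7 was high in all groups (44.0 FPKM on average in B-ALL, 70.6 in dHet proB and 58.7 in wt proB), and Ccr2 averaged 3.23 in B-ALL, 0.0630 in dHet proB and 7.72 in wt proB. Of the TIM family, Timd4 averaged 2.64 FPKM in B-ALL, 0 in dHet proB and 0.0486 in wt proB, and Havcr2 stayed between 0.211 and 0.258 in the 3 group means. Of the toll-like receptors besides Tlr7, Tlr4 averaged 4.77 FPKM in B-ALL, 6.21 in dHet proB and 4.27 in wt proB.

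The wt proB libraries differed from each other in these genes. All 10 members were higher in library 1 than in library 2, by a median of 0.64 on the log2(FPKM + 1) scale or 1.56-fold. The median over 10364 genes with 1 FPKM or more in both was 0.02, and the central 80% of genes ran from -0.31 to 0.36. Of these 10364 genes, 5584 were higher in library 1. The range over members was 0.12 (Smim5) to 1.01 (Klk1), with Siglech at 0.77 and Tyrobp at 0.73. Of the 42 other plasmacytoid dendritic cell genes, 41 could be read and 37 were higher in library 1, with a median of 0.39. There is no replicate for a comparison of 1 library with another, so no test was made.

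Marker lists of other cells were compared in the same way. Mature B cell markers were also higher in library 1 (4 of 4 read, median 0.68), with Ms4a1, the CD20 gene, at 103 and 54.5 FPKM in libraries 1 and 2. Conventional dendritic cell markers were higher in library 1 for 6 of 6 genes read (median 0.41), genes of DAP12 partners for 6 of 6 (0.25) and erythroid markers for 2 of 2 (1.82). Neutrophil markers were lower in library 1 for 8 of 12 genes (median -0.36), with Ngp at 144 and 213 FPKM but S100a8 at 129 and 82.5. Macrophage markers had a median of 0.18, NK cell markers 0.11 and proB genes -0.01. The proB genes were split, with 6 higher and 6 lower in library 1, and ran from Ebf1 at -0.87 to Pax5 at 0.80.

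**Figure D4:**
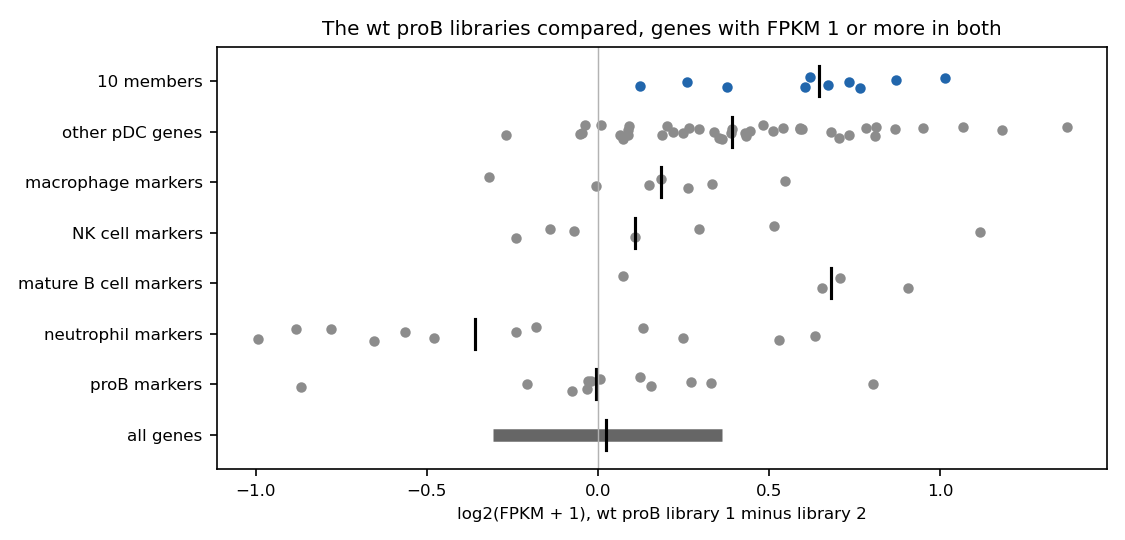
Difference in log2(FPKM + 1) between wt proB library 1 and library 2 for single genes (points) of the 10 members and of marker lists, with the list's median as a black line; the grey bar spans the central 80% of all genes. All 10 members lie to the right of 0, and the neutrophil median lies to its left.

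Markers of other cell types were read beside the members, and their part in the members' levels was not tested. Neutrophil markers, 12 genes, summed to 1.28 to 53.0 FPKM in B-ALL, 0.314 to 3.31 in dHet proB, against 418 and 451 in wt proB libraries 1 and 2. Of the 12, 11 fell in each comparison with wt proB. Among these, Elane, Mpo, Lcn2, Mmp8 and Cebpe reached 1 FPKM in no unit outside wt proB and could only be called lower. Camp, Ltf, S100a8, S100a9 and Retnlg reached it there only in mouse 686, so they also passed the filter through wt proB. Macrophage markers, 12 genes, summed to 10.9 to 55.9 in B-ALL, 1.02 to 1.10 in dHet proB, against 108 and 91.1 in wt proB; Cd68, a lysosomal protein that dendritic cells also carry, made up 69.0 and 57.3 of the wt proB sums, while Csf1r was at 1.76 and 0.819 there. Mature B cell markers, 5 genes, summed to 19.4 to 61.3 in B-ALL, 7.47 to 15.9 in dHet proB, against 161 and 93.8 in wt proB. Both wt proB libraries were above all others in the sums of these 3 lists as well as of the members.

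Of 11 markers of conventional dendritic cells, 6 were tested, and 4 fell in each comparison with wt proB (median difference -1.41 in B-ALL and -1.38 in dHet proB). Cd209a, at 36.6 FPKM or more in wt proB and at most 4.24 elsewhere, and Clec10a fell in both. Clec9a fell in both as well, at 0 in all B-ALL and dHet proB libraries and at 1.58 and 1.10 FPKM in wt proB libraries 1 and 2. Clec10a and Clec9a reached 1 FPKM in no unit outside wt proB, so they could only be called lower. Cd209a reached it there only in mouse 713, so it also passed the filter through wt proB. In wt proB libraries 1 and 2, Xcr1 had 0.204 and 0.171 FPKM, Zbtb46 0.457 and 0.543, and Batf3 0.546 and 0.137. The sum over the 11 genes was 139 to 206 in B-ALL, 547 to 914 in dHet proB, against 605 and 431 in wt proB, and was made up mostly of Cd24a, which B cell precursors express. NK cell markers, 11 genes, summed to 52.5 to 335 in B-ALL with the highest values in mouse 760, 8.03 to 35.2 in dHet proB, against 48.0 and 40.3 in wt proB. T cell markers, 9 genes, summed to 7.72 to 20.3 in B-ALL, 1.69 to 4.61 in dHet proB, against 11.8 and 8.96 in wt proB. Basophil markers, 6 genes, summed to 0.0516 to 1.04 in B-ALL, were at 0 in dHet proB and summed to 3.73 and 9.32 in wt proB. The basophil sum was thus also highest in wt proB, at low levels. Sums of plasma cell markers (1394 to 1590 in B-ALL, 839 to 1713 in dHet proB, against 1004 and 964 in wt proB) and of eosinophil, erythroid and stromal markers did not set wt proB above both other groups. The stromal sum was mostly Pecam1. Cdh5, the endothelial cadherin on that list, was at most 0.291 FPKM in B-ALL and 0.115 in dHet proB, against 7.99 and 7.74 in wt proB. It fell in both comparisons (-3.02 and -3.06), but it entered the test through wt proB alone and could only be called lower.

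**Figure D5:**
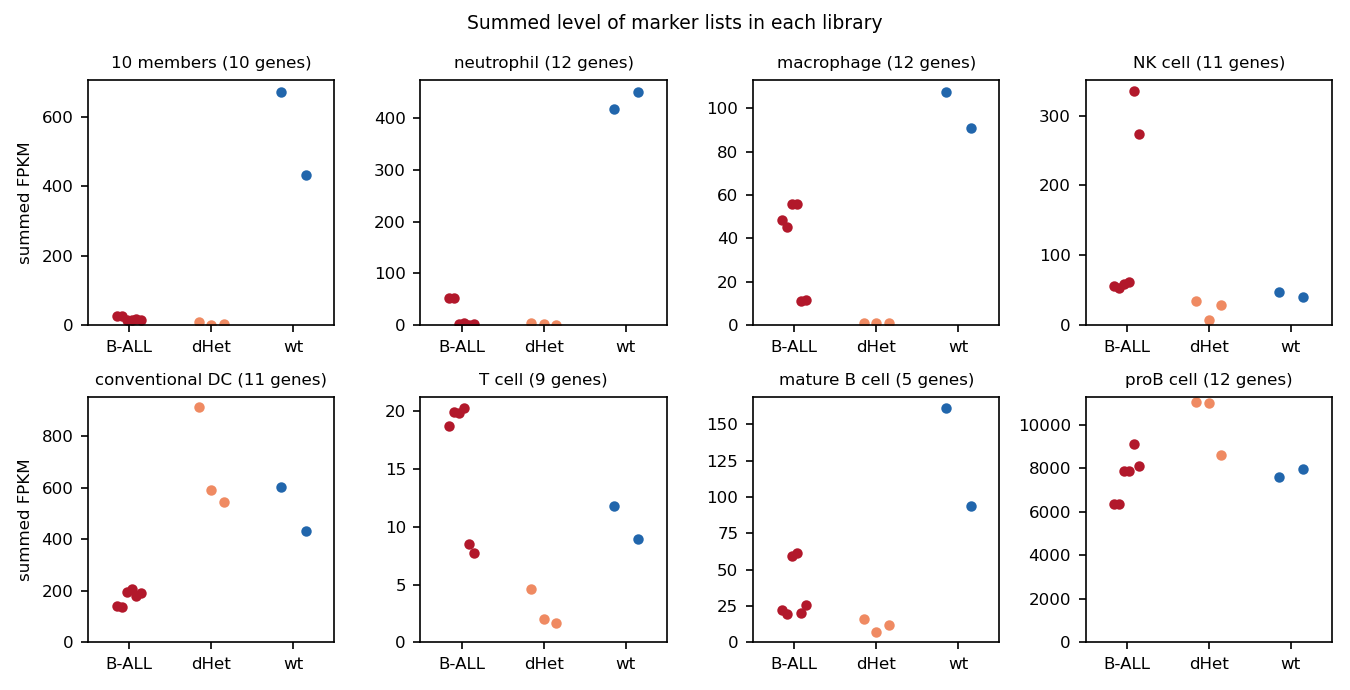
Summed FPKM of the 10 members and of 7 marker lists in each B-ALL, dHet proB and wt proB library, 1 point per library on linear axes from 0. Members, neutrophil, macrophage and mature B cell lists are highest in wt proB, and the proB sum is highest in dHet proB libraries 1 and 2.

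Tyrobp was also read beside the partners of its product. Of 13 genes for receptors that pair with DAP12 and for signalling proteins, 6 were tested; 3 rose and 1 fell in B-ALL against wt proB, and 1 fell and none rose in dHet proB. Fcer1g, the other adaptor of this kind, had 3.70 to 26.2 FPKM in B-ALL, 18.4 to 67.9 in dHet proB, against 126 and 88.1 in wt proB. Trem1, a DAP12-coupled receptor of myeloid cells, had 33.9 to 65.3 FPKM in B-ALL, 1.88 to 10.2 in dHet proB, against 3.54 and 3.01 in wt proB. Trem1 was singled out after its values were seen.

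Across the 11 libraries the members moved together. The Pearson r between pairs of members, over the libraries' log2(FPKM + 1), was 0.648 to 1.00 with a median of 0.901 over 45 pairs. These libraries form 3 groups and the members were chosen for wt proB, so r mostly reflects that contrast and no p is given. The 8 other genes most like the mean of the 10 members, among 6266 with a mean of 10 FPKM or more in wt proB, were Lag3 (r = 0.995), Clec10a (0.993), Upb1 (0.991), Tbc1d8 (0.991), As3mt (0.991), Cd300c (0.991), Cd7 (0.989) and Tmem221 (0.987). Of them 4, Lag3, Upb1, Cd300c and Cd7, are on the list of 42, and 30 of the 6266 had r above 0.95. Clec10a, a lectin of conventional dendritic cells and macrophages, had 0 to 0.712 FPKM in B-ALL, 0 in dHet proB, against 27.0 and 15.9 in wt proB. As3mt, an arsenic methyltransferase, was nearly equal in the wt proB libraries, at 27.1 and 26.8 FPKM. The 10 members were all higher in library 1, by 0.12 (Smim5) to 1.01 (Klk1) on the log2(FPKM + 1) scale.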

How the data were processed

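RNA was sequenced in 11 libraries: 2 from each of 3 B-ALL mice, 3 of dHet proB cells and 2 of wt proB cells. The submitters' processing notes name Cuffnorm 2.2.1, Cuffdiff, Cufflinks 2.2.1, STAR 2.5.3a, bcl2fastq in versions 0.3.1 and 2.20.0.422, and the genome build mm9. The authors deposited 1 FPKM table per library. The sources used here do not give Cuffnorm's scaling, the annotation or the use of strand. Libraries were taken by their titles; the source name of dHet proB library 3 gives replicate 2.

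The members and all gene lists were chosen with earlier results of these data known. FPKM was transformed to log2(FPKM + 1), the libraries of a mouse were averaged on that scale, and a gene was tested if at least 2 of the 8 units reached 1 FPKM (11110 genes). limma 3.58.1 (R 4.3.3) was fitted to the 3 groups together with a mean-variance trend, two-sided, with Benjamini-Hochberg adjustment at 0.05 over all genes; it was checked on simulated data. The mice were compared by limma's F test on 11 libraries in 5 groups. With 3 mice against 2 or 3 libraries, calls depend on limma's pooling of the spread over genes. Named were all members; of the other plasmacytoid dendritic cell genes, the 8 with the largest B-ALL difference among those called in both comparisons and at 10 FPKM or more in wt proB, and Tcf4, Irf8, Irf7, Tlr7, Tlr9 and Bst2; of marker lists and families, mainly the 2 highest genes; and the 8 genes most like the members, predicted gene models left out. Other names were added after their values were seen. Another pseudocount, filters, scalings, designs and leaving out each library or mouse were tried. Tables and figures were made with Python 3.11.15, pandas 2.3.3, numpy 2.4.6 and matplotlib 3.10.9.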

Additional observations from a re-analysis of the deposited data

Results flagged for a closer look

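Among the 6 B-ALL libraries, Cd300c had 0.0583 FPKM in library 1 of mouse 686 and was listed at 0 in the other 5. Klra17, a receptor of the Ly49 family on the list of other plasmacytoid dendritic cell genes, had 0.0355 FPKM in library 2 of mouse 686 and was listed at 0 in the other 5. With 5 of 6 values tied at 0, Dixon's ratio is 1 whatever the sixth value is, so its chance rate of about 1 in 20 groups does not hold and nothing is read from these values.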

How the results depend on the processing

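Over the alternatives tried, 61 summary values stayed within the limits set and 17 moved; of the values of single genes, 1113 stayed, 39 lost and 30 gained a call, 31 moved, and none reversed. The 21 other plasmacytoid dendritic cell genes that fell in B-ALL numbered 6 (without wt proB library 1) to 28 (without mouse 713) when 1 library or mouse was left out, and the 20 that fell in dHet proB numbered 6 to 24; with 1 wt proB library fewer genes reach the filter, 35 of 42. The 1 member that passed between B-ALL and dHet proB became 3 with a pseudocount of 0.1 (Ccr9 and Tlr12 added), 2 with a filter of 5 FPKM, 2 with library 1 of each mouse, 1 to 2 when 1 library or mouse was left out, and 5 with 11 libraries in 5 groups. The 4 members that differed among the mice numbered 2 to 4 when a library was left out; Tlr12 lost its call in 11 alternatives and Tyrobp in 7. Library 1 over library 2 of wt proB stayed between 0.58 and 0.69. With FPKM divided by their sum (TPM), the median of all genes in B-ALL minus wt proB was -0.22, against -0.02 as reported, and no call of a member changed direction. Same-numbered libraries deviated together among the 3 mice (r = 0.134 to 0.635) but not throughout in pairs with dHet proB or wt proB (-0.133 to 0.113). With a replicate block on the 11 libraries, 31 genes of the list fell in B-ALL, 32 in dHet proB, 5 members passed between B-ALL and dHet proB and 3 among the mice (Tlr12 lost); without the block the same 11 libraries gave 31, 30 and 5. Over all 11293 genes, 5831 passed between B-ALL and dHet proB with the block and 5735 without it. Fits on 11 libraries count the 2 libraries of a mouse as separate units, so their spread is not between animals. Where not stated, the cause was not tested. Depth is unknown, so levels near 0 could not be told from absence.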
